A study of Mus musculus with 22 samples.

Results

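Metallothioneins and the zinc-handling genes that belong with them were followed in 22 RNA-seq libraries of a murine leukemia. The 4 genes were Mt1, Mt2, Mtf1 and Slc30a1, out of 17023 genes to which the annotation assigned transcripts. They had been chosen by the pattern of Mt2, which was lower in the NFKBIE-ko spleen than in the NFKBIE-wt spleen and was not at the other sites, so that every difference between the genotypes is given here as a description, without a test. All 4 genes passed the filter on low counts in every comparison.

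Metallothioneins are small, cysteine-rich proteins that bind zinc and copper and buffer them inside the cell. MTF-1, encoded by Mtf1, is a transcription factor that senses zinc and binds metal response elements in the promoters of the metallothionein genes and of Slc30a1. Slc30a1 encodes ZnT1, the exporter that moves zinc out through the plasma membrane. Apart from metals, metallothionein genes are known to respond to glucocorticoids and to oxidative stress.

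The cells were TCL1-355 TKO, a line derived from a leukemia of the Eμ-TCL1 mouse, in which the human TCL1 oncogene is driven in B cells, and all groups carried inactivating lesions in tumor suppressor genes, CDKN2A and CDKN2B among them. In the NFKBIE-ko cells the Nfkbie gene, which encodes the NF-κB inhibitor IκBε, had been edited with Cas9 ribonucleoprotein. The NFKBIE-wt cells (labelled MOCK) had received Cas9 without a guide. Each genotype was propagated in a C57BL/6 mouse for 21 days and injected into 5 C57BL/6 recipients, mice that were 2 to 3 months old by the methods of the study, and cells were taken from the spleen and the peritoneal cavity (PC) after 10 days, with 4 libraries per genotype and site. For the in vitro groups, cells from spleens had been cultured for 2 weeks, with 3 libraries per genotype. Because the genotypes had been propagated apart, the edit and the history of each line cannot be told apart. The samples were not purified, so that other cells of the host were in them, and in bulk samples fewer cells of a type and less RNA per cell cannot be told apart. The labels disagree among themselves, since the description field names the NFKBIE-wt cells first also for NFKBIE-ko samples and the tissue field reads blood, and the group was taken from the title.

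The libraries held 24036763 to 26581304 estimated counts each. Levels are given as CPM, counts scaled to the size of the library, after TMM scaling. Summed over its transcripts, the targeted gene Nfkbie was at 86.0 ± 25.2 CPM in the NFKBIE-wt spleen and 98.8 ± 30.1 in the NFKBIE-ko spleen (SD, n = 4), at 79.1 ± 9.93 and 53.9 ± 8.39 in the PC (n = 4), and at 104 ± 44.5 and 54.7 ± 5.97 in vitro (n = 3). Without the libraries that went against their labels, described next, it was 73.5 ± 3.06 CPM in the NFKBIE-wt spleen (n = 3) and 129 ± 16.8 in the NFKBIE-wt culture (n = 2). The level of the edited gene thus overlapped between the genotypes in the spleen, and it does not check the labels of those libraries. The summed markers of leukemic B cells (Cd79a, Cd79b, Pax5 and others) lay between 6093 and 11337 CPM, with none of the 7 genes at 0 in the spleen.

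A pair of libraries went against their labels. The library labelled NFKBIE-wt spleen replicate 4 had a Pearson's r of 0.971 to 0.984 with the other NFKBIE-wt cultures and of 0.893 to 0.927 with the other NFKBIE-wt spleens, over 9794 genes as log2(CPM + 1). The library labelled NFKBIE-wt culture replicate 3 had an r of 0.964 to 0.984 with those spleens and of 0.888 to 0.913 with those cultures. Tsc22d3 was at 312 to 637 CPM in the other 7 spleen libraries and at 14.5 to 25.1 CPM in the other 5 cultures. It was at 18.5 CPM in the library labelled NFKBIE-wt spleen replicate 4 and at 560 CPM in the one labelled NFKBIE-wt culture replicate 3. Nqo1 showed the reverse, at 0.268 to 2.43 CPM in the other spleens and 15.6 to 21.5 CPM in the other cultures, and at 20.1 and 1.42 CPM in these libraries in the same order. The erythroid markers summed to 6.88 CPM in the library labelled spleen and to 1532 CPM in the one labelled culture, where the other cultures held 12.1 to 25.5 CPM. Each of these libraries thus resembled the other site of its genotype. Whether their labels had been exchanged was not tested, the labels were kept, and results that rest on them are given with and without them.

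The metallothionein genes lie side by side on chromosome 8 of the GRCm39 build, Mt2 (ENSMUSG00000031762) at 94898819-94900207 and Mt1 (ENSMUSG00000031765) at 94905710-94906955, both on the plus strand with 5502 bases between them. Mtf1 (ENSMUSG00000028890) lies on chromosome 4 at 124695897-124743593 and Slc30a1 (ENSMUSG00000037434) on chromosome 1 at 191638808-191645361. The promoters are shown since these genes are textbook targets of MTF-1 and since Mt1 and Mt2 differed in their pattern. The sequences are from RefSeq on the GRCm38.p6 build, from 250 bases before the annotated start to 30 bases after it, all on the plus strand. Capitals mark the core of the metal response element, searched as TGCACNC and TGCGCNC on both strands, and none of the marked cores overlap. The windows of Mt1, Mt2 and Slc30a1 are chr8:94178839-94179118, chr8:94172368-94172647 and chr1:191906531-191906810.
Mt1: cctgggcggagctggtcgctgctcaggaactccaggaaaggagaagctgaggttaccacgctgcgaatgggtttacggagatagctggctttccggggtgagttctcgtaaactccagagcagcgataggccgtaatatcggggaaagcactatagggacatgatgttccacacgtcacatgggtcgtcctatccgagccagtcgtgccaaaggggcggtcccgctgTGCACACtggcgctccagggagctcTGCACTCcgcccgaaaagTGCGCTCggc
Mt2: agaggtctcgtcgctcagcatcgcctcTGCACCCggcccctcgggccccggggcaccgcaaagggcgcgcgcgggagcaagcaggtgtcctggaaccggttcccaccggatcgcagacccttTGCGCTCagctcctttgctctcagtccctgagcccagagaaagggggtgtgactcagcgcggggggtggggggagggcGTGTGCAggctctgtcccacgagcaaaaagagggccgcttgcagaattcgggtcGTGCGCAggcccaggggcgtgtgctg
Slc30a1: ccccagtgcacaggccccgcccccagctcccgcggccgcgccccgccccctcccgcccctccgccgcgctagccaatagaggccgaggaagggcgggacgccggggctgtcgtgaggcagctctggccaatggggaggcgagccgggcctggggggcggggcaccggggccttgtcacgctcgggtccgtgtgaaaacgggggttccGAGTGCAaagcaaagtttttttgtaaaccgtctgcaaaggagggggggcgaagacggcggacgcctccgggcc

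The Mt1 window held 3 cores, beginning at positions -23, 3 and 21, where 1 is the start annotated by RefSeq, all on the plus strand. That start need not be the one used in these cells or by the transcripts counted here. Cores outside the windows were not searched, so that the numbers describe the windows and not the whole promoters. The Mt2 window held 4, at -223 and -128 on the plus strand and at -50 and 5 on the minus strand. Slc30a1 had 1 core, at -43 on the minus strand, and in the window of Mtf1, which is not printed, these letters were not found. Of 32851 RefSeq promoters of the same length, 24.1% held at least 1 core, 1.73% at least 3 and 0.405% at least 4. A match of letters is a description and does not show that a factor binds there.

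Mt2 was lower in every NFKBIE-ko spleen library than in any NFKBIE-wt spleen library. In the NFKBIE-wt spleen its levels were 14.1, 40.3, 26.5 and 31.1 CPM in replicates 1 to 4. In the NFKBIE-ko spleen they were 4.52, 4.14, 2.42 and 5.02 CPM. The ranges did not overlap, and the lowest NFKBIE-wt library held 350 counts against 61 to 132 in the NFKBIE-ko libraries. The log2 fold change was -2.80 (SE 0.35), which is 6.98-fold lower, and it was -2.74 (SE 0.36) with the library labelled NFKBIE-wt spleen replicate 4 left out. In this comparison, 3.0% of all genes tested passed both thresholds used by the study for DETs (adjusted p 0.05, log2 fold change beyond 1 in either direction), and nothing is read from Mt2 against that share, since Mt2 was chosen on this difference.

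In the PC the levels of Mt2 did not separate the genotypes. They were 52.4, 28.8, 47.1 and 55.1 CPM in the NFKBIE-wt PC and 38.7, 47.6, 53.6 and 38.1 CPM in the NFKBIE-ko PC, and the ranges overlapped. The log2 fold change was -0.06 (SE 0.20), in a comparison in which 13.4% of all genes passed both thresholds. In vitro, Mt2 was at 34.0, 38.2 and 30.9 CPM in NFKBIE-wt and at 40.6, 39.6 and 31.6 CPM in NFKBIE-ko cells, with overlapping ranges and a log2 fold change of 0.11 (SE 0.14), or of 0.05 without the library labelled NFKBIE-wt culture replicate 3. There 0.0427% of all genes passed both thresholds. Set against the PC, the genotype difference of Mt2 in the spleen was larger by -2.75 (log2, SE 0.38), and set against culture by -2.91 (SE 0.41), or by -2.68 and -2.78 without both libraries that went against their labels. These values are given without a test since they are the pattern that chose the gene.

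Mt1 followed another pattern than its neighbor. In the spleen it was at 199, 238, 197 and 196 CPM in NFKBIE-wt and at 108, 103, 101 and 113 CPM in NFKBIE-ko libraries. In the PC it was at 166, 119, 150 and 161 CPM in NFKBIE-wt and at 77.9, 69.0, 94.5 and 85.1 CPM in NFKBIE-ko libraries. The ranges were apart at both sites, and the log2 fold change was -0.97 (SE 0.10) in the spleen and -0.88 (SE 0.13) in the PC. In culture, Mt1 was at 208, 221 and 260 CPM in NFKBIE-wt and at 207, 188 and 182 CPM in NFKBIE-ko cells, and the nearest libraries of the genotypes almost touched. The log2 fold change in vitro was -0.26 (SE 0.12), and -0.15 without the library labelled NFKBIE-wt culture replicate 3, which was the highest. The NFKBIE-wt library of 238 CPM in the spleen was far above its group, and without it the log2 fold change there was -0.89. With the library labelled NFKBIE-wt spleen replicate 4 left out it was -0.99 (SE 0.11). The Mt1 difference was thus of like size in the spleen and the PC (spleen minus PC -0.10, SE 0.16), whereas that of Mt2 was not.

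**Figure D1:**
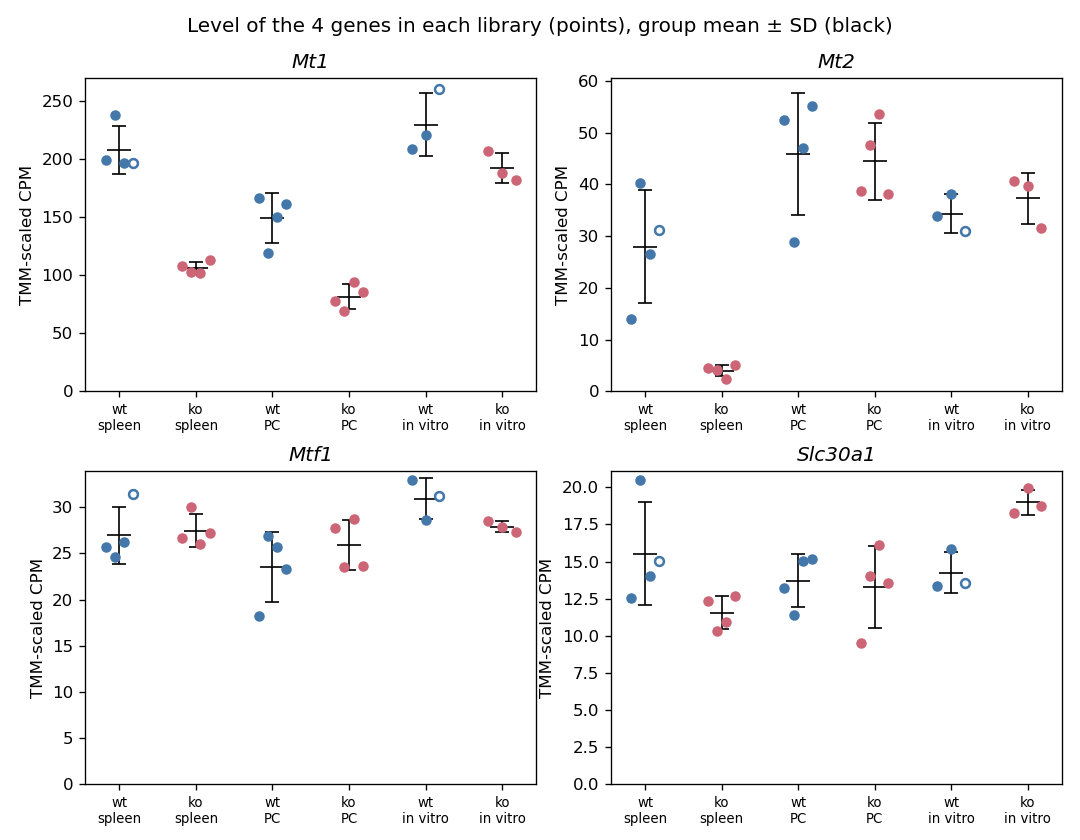
TMM-scaled CPM (linear axes from 0) of Mt1, Mt2, Mtf1 and Slc30a1 in each library (points, blue for NFKBIE-wt and red for NFKBIE-ko), with the group mean ± SD in black (n = 4 in the spleen and the PC, n = 3 in vitro). Open circles are both libraries that went against their labels. The 4 NFKBIE-ko spleen libraries hold Mt2 at 2.42 to 5.02 CPM, below all other groups, whereas Mt1 is lower in NFKBIE-ko libraries of both the spleen and the PC.

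Mtf1, which encodes the zinc sensor, varied little. In the spleen it was at 25.6, 24.6, 26.2 and 31.4 CPM in NFKBIE-wt and at 26.6, 30.02, 26.0 and 27.2 CPM in NFKBIE-ko libraries. In the PC the NFKBIE-wt libraries lay between 18.2 and 26.9 CPM and the NFKBIE-ko libraries between 23.6 and 28.7 CPM. In culture the ranges were 28.6 to 33.0 and 27.3 to 28.5 CPM. The log2 fold changes between genotypes were 0.02 (SE 0.12), 0.13 (SE 0.12) and -0.15 (SE 0.09) in the spleen, the PC and in vitro. The groups overlapped in the spleen and the PC, and lay apart by a narrow margin in culture. Without the libraries that went against their labels, the values in the spleen and in vitro were 0.11 and -0.14.

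Slc30a1, the zinc exporter, was at 12.6, 20.5, 14.04 and 15.0 CPM in the NFKBIE-wt spleen and at 12.4, 10.3, 10.9 and 12.7 CPM in the NFKBIE-ko spleen. These ranges overlapped by a narrow margin, with a log2 fold change of -0.43 (SE 0.17), and without the NFKBIE-wt library of 20.5 CPM it was -0.26. In the PC it was at 13.2, 11.4, 15.0 and 15.2 CPM in NFKBIE-wt and at 9.50, 14.1, 16.1 and 13.5 CPM in NFKBIE-ko libraries, which overlapped (log2 fold change -0.06, SE 0.16). In culture the NFKBIE-ko libraries were the higher ones, at 18.3, 19.9 and 18.7 CPM against 13.4, 15.8 and 13.6 CPM, without overlap (log2 fold change 0.41, SE 0.12). The difference in the spleen and the difference in culture thus had opposite signs (spleen minus in vitro -0.84, SE 0.24). Without the libraries that went against their labels, the values were -0.44 (SE 0.19) in the spleen and 0.38 (SE 0.11) in culture.

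**Figure D2:**
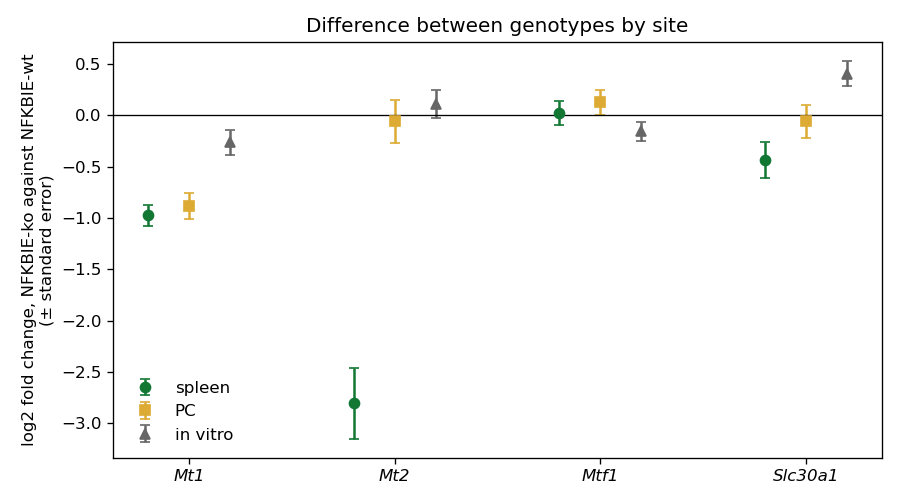
Log2 fold change of NFKBIE-ko against NFKBIE-wt (± standard error) of the 4 genes in the spleen, the PC and in vitro, from the separate fit of each site. Mt2 stands at -2.80 in the spleen and near 0 elsewhere, and Mt1 at -0.97 in the spleen and -0.88 in the PC.

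Markers of other cells moved with some of these differences. The summed markers of myeloid cells (12 genes, Itgam, Adgre1 and Csf1r among them) were at 24.9 to 88.5 CPM in the NFKBIE-wt spleen and 94.5 to 381 CPM in the NFKBIE-ko spleen. Their median log2 fold change there was 1.95. With all 8 libraries, 0 of the 11 genes tested were called in edgeR, where 3.0% of all genes were, so that nothing is read from this count. In the PC the myeloid sums were at 606 to 1833 and 3935 to 5811 CPM, while the ranges of Mt2 overlapped between the genotypes there. Of the 12 genes, 9 were called higher, at a median of 1.41, where 13.4% of all genes were called. Of the 7 leukemic B cell markers, 0 were called in the spleen, the PC or in vitro, where 3.0%, 13.4% and 0.0427% of all genes were. Nothing is read from that count. Their sums were lower in the NFKBIE-ko libraries in every site, without overlap. They were at 6093 to 7328 CPM against 9194 to 9583 in the spleen, 7694 to 8233 against 10306 to 10588 in the PC and 7081 to 7541 against 8172 to 11337 in vitro. By contrast, the median log2 fold change of the 7 genes was near 0 for PC libraries (-0.03), beside -0.45 for spleen and -0.19 for culture libraries. The lower PC sum was thus not shared by the typical gene of this list. Whether the share of leukemic cells differed was not tested.

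The sums of T cell markers (9 genes) overlapped in the spleen, with 40.1 to 160 CPM in NFKBIE-wt and 130 to 218 CPM in NFKBIE-ko libraries. There 1 gene was called higher, where 3.0% of all genes were called, and the median log2 fold change of the 9 genes was 1.83. These sums were at 55.4 to 71.2 CPM also in the NFKBIE-ko cultures, where 4 of the 9 genes were at 0, so that they can hide a rise of single genes. In the PC, where 13.4% of all genes were called, the T cell sums were at 205 to 271 and 244 to 321 CPM, with 6 of 9 genes called higher and a median of 1.41. Granulocyte markers overlapped in the spleen (0.155 to 411 and 99.5 to 267 CPM), whereas in the PC they were at 165 to 488 CPM in NFKBIE-wt and 32.1 to 50.2 CPM in NFKBIE-ko libraries, with 6 of 8 genes called lower. Erythroid markers (6.88 to 2157 and 61.2 to 906 CPM) and those of stromal, endothelial and mesothelial cells (9.09 to 18 and 11.4 to 15.1 CPM) overlapped in the spleen, and in the PC 4 of 5 stromal, endothelial and mesothelial genes were called, 1 higher and 3 lower. The lowest NFKBIE-wt values in the spleen were those of the library labelled replicate 4. Without it, the NFKBIE-wt spleen held 59.6 to 88.5 CPM of myeloid, 101 to 160 of T cell, 65.1 to 411 of granulocyte and 329 to 2157 of erythroid markers. The part of these cells in the differences of Mt2 and Mt1 was not tested.

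Per length of transcript, Mt1 was the most abundant of the 4 genes in every group. Its mean level ranged from 249 TPM (a level scaled to transcript length and library size) in the NFKBIE-ko PC to 777 TPM in the NFKBIE-wt culture. Mt2 ranged from 10.7 ± 3.22 TPM in the NFKBIE-ko spleen to 113 ± 24.5 TPM in the NFKBIE-wt PC (SD, n = 4). Mtf1 lay between 12.8 and 18.6 TPM and Slc30a1 between 3.96 and 6.93 TPM. Mt2 in the NFKBIE-ko spleen was below the sum over all Mtf1 transcripts in the same samples (14.9 ± 2.92 TPM). In the other groups it was above that sum. The sum included a transcript of 781 bases with a retained intron, at a mean count of 99 in the NFKBIE-ko spleen. The main Mtf1 transcript, of 7975 bases, had a mean count of 600 there. Per length the former weighed more, so that the order holds for the sum and not for the main Mtf1 transcript alone.

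The balance of the 2 metallothioneins differed between the groups. The level of Mt2 in TPM was 10.9% ± 3.60 of that of Mt1 in the NFKBIE-wt spleen and 3.08% ± 0.759 in the NFKBIE-ko spleen (SD, n = 4). In the PC it was 24.9% ± 3.43 and 44.8% ± 8.48 (n = 4), and in culture 12.4% ± 2.26 and 15.7% ± 1.50 (n = 3). Without the libraries that went against their labels it was 10.3% ± 4.12 in the NFKBIE-wt spleen (n = 3), between 5.84% and 14%, and 13.6% ± 0.567 in the NFKBIE-wt culture (n = 2). The share was lower in the NFKBIE-ko than in the NFKBIE-wt spleen and higher in the NFKBIE-ko than in the NFKBIE-wt PC, without overlap at either site. In the PC, Mt1 was the member of the pair that differed between the genotypes, and in the spleen both did, Mt2 by the larger fold.

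**Figure D3:**
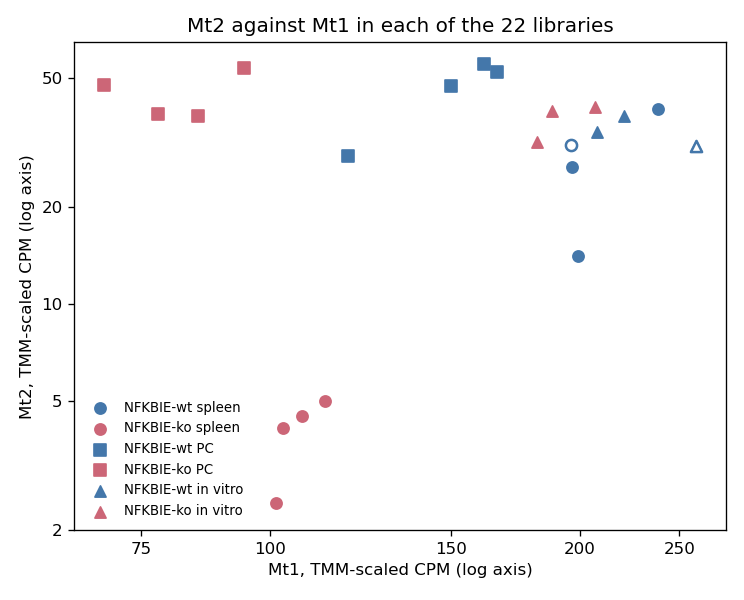
Mt2 against Mt1 in TMM-scaled CPM in each of the 22 libraries (both axes are log axes, color gives the genotype, shape the site, and open symbols are both libraries that went against their labels). The NFKBIE-ko spleen libraries lie at the bottom with Mt2 at 2.42 to 5.02 CPM, and the NFKBIE-ko PC libraries at the left with Mt1 at 69.0 to 94.5 CPM and Mt2 at 38.1 to 53.6 CPM.

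Each gene was carried by a main transcript. ENSMUST00000034214 held 99.9% of the counts of Mt2, ENSMUST00000034215 96.5% of those of Mt1, ENSMUST00000044954 99.8% of those of Slc30a1 and ENSMUST00000106193 83.5% of those of Mtf1, where a transcript with a retained intron (ENSMUST00000147452) held 15.4%. The mean count of the main Mt2 transcript was 707 in the NFKBIE-wt spleen and 104 in the NFKBIE-ko spleen, and 1126 and 1110 in the PC. The longest run of bases shared by the main transcripts of Mt1 and Mt2 was 20, and no word of 31 bases of Mt1 occurred in a transcript of another gene. Of the words of Mt2, 68.7% also occurred in other genes on either strand. The antisense gene Gm45774, of which no transcript had values here, held 427 of the 652 words. Of the words of Mtf1, 9.2% were shared with the antisense gene 1110065P20Rik, and of those of Slc30a1, 8.4% with 1700034H15Rik. Whether the library kept strand is not given in the sources used here, so that reads of Mt2 and of its antisense partner cannot be told apart.

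Across the 6 groups, the order of Mt1 ran from the NFKBIE-wt culture (230 ± 26.9 CPM) over the NFKBIE-wt spleen (208 ± 20.4), the NFKBIE-ko culture (192 ± 13.3), the NFKBIE-wt PC (149 ± 21.2) and the NFKBIE-ko spleen (106 ± 5.23) to the NFKBIE-ko PC (81.6 ± 10.8). The first 3 of these overlapped with their neighbors and the others lay apart. For Mt2 the order was the NFKBIE-wt PC (45.9 ± 11.9 CPM), the NFKBIE-ko PC (44.5 ± 7.46), the NFKBIE-ko culture (37.3 ± 4.94), the NFKBIE-wt culture (34.4 ± 3.68), the NFKBIE-wt spleen (28 ± 10.9) and the NFKBIE-ko spleen (4.02 ± 1.13), and only the last lay apart from its neighbor. Neighbors in the order of Slc30a1 overlapped throughout, and those of Mtf1 did so with the exception of the cultures. Without the libraries that went against their labels, Mt1 was at 215 ± 9.04 CPM in the NFKBIE-wt culture (n = 2) and 211 ± 23.2 in the NFKBIE-wt spleen (n = 3), and Mt2 at 36.1 ± 3.01 and 27 ± 13.1 CPM.

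The sites were compared with the mean of both genotypes at equal weight, which is independent of the difference between the genotypes, by the quasi-likelihood test of edgeR, with p-values adjusted after Benjamini and Hochberg over 13538 genes. In the PC against the spleen, Mt1 fell by 0.43 on the log2 scale (SE 0.08, adjusted p = 0.00012, 8 libraries per site), whereas Mtf1 (-0.14, SE 0.08, adjusted p = 0.133) and Slc30a1 (0.01, SE 0.11, adjusted p = 0.948) did not pass the test. At any fold, 57.8% of all genes passed an adjusted p of 0.05 in this comparison, and 18.2% passed with a log2 fold change beyond 1, which Mt1 did not. Within the genotypes, the Mt1 value was -0.48 (SE 0.11) in NFKBIE-wt and -0.38 (SE 0.11) in NFKBIE-ko cells. With both libraries that went against their labels left out, Mt1 stood at -0.44 (SE 0.08, adjusted p = 0.000143), and at -0.49 within NFKBIE-wt.

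Against culture, Mt1 was lower at both sites in the host in the mean of both genotypes. It fell by 0.50 on the log2 scale in the spleen (SE 0.08, adjusted p = 0.00102), where 29.0% of all genes passed at any fold and 9.88% with a log2 fold change beyond 1. Within the genotypes the value was -0.15 (SE 0.12) in NFKBIE-wt cells, in which 0 of all genes were called (1061 at an unadjusted p below 0.05) while both libraries that went against their labels were in this comparison, and -0.86 (SE 0.12) in NFKBIE-ko cells. Without both it was 0.01 (SE 0.14) within NFKBIE-wt and -0.82 (SE 0.12) within NFKBIE-ko cells, and -0.40 in the mean (SE 0.09, adjusted p = 0.00159). In the PC against culture it fell by 0.93 (SE 0.08, adjusted p = 4.1e-08), by 0.62 within NFKBIE-wt and by 1.24 within NFKBIE-ko cells, and 56.6% of all genes passed at any fold and 19.5% beyond a log2 fold change of 1. Once both libraries that went against their labels were left out it was -0.84 (SE 0.09, adjusted p = 2.2e-07), and -0.48 within NFKBIE-wt cells.

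The differences of Mtf1 and Slc30a1 between the host and culture were small. In the PC against culture, edgeR gave Mtf1 a log2 fold change of -0.25 (SE 0.08, adjusted p = 0.0163) and Slc30a1 one of -0.28 (SE 0.12, adjusted p = 0.0498). Mtf1 kept an adjusted p below 0.05 in 24 of 33 alternatives and Slc30a1 in 6 of 33, and with DESeq2 the adjusted p was 0.0638 and 0.143. Without both libraries that went against their labels the values were -0.21 (adjusted p = 0.0433) and -0.26 (adjusted p = 0.1). In the spleen against culture, Mtf1 (-0.11, SE 0.08, adjusted p = 0.335) and Slc30a1 (-0.29, SE 0.12, adjusted p = 0.0708) did not pass, nor did they without both libraries (-0.11 and -0.27).

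The differences of Mt2 between sites are given as values, since its levels at all sites had chosen it. In the PC against culture it stood at 0.33 (SE 0.20). In the PC against the spleen it was higher by 0.71 on the log2 scale (SE 0.26) in NFKBIE-wt and by 3.46 (SE 0.29) in NFKBIE-ko cells, and in the spleen against culture it stood at -0.30 (SE 0.28) and -3.21 (SE 0.30). The mean over both genotypes was 2.09 and -1.75. With both libraries that went against their labels left out, the values within NFKBIE-wt were 0.78 and -0.39 and the means 2.12 and -1.78. In NFKBIE-wt cells Mt2 and Mt1 thus went opposite ways between the spleen and the PC, by 0.71 and -0.48.

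**Figure D4:**
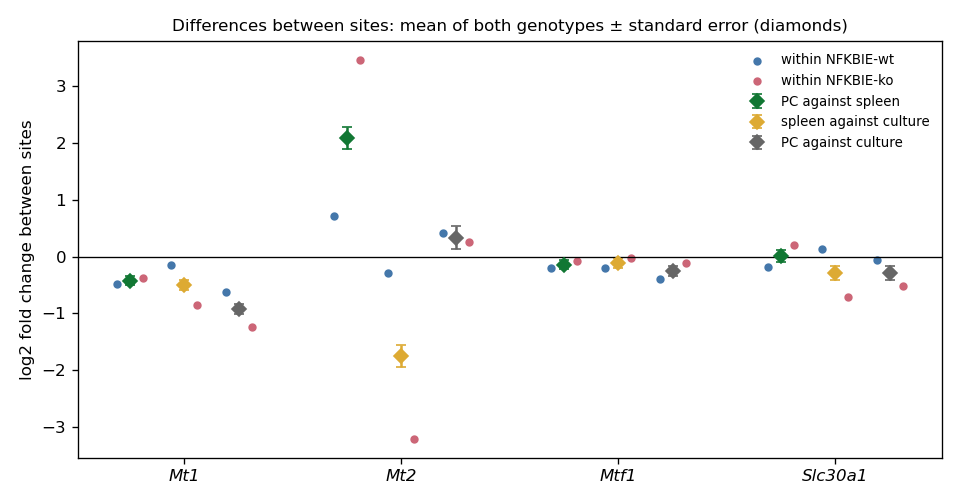
Log2 fold change between sites of the 4 genes, as the mean of both genotypes ± standard error (diamonds) and within each genotype (small points, blue for NFKBIE-wt and red for NFKBIE-ko). For Mt2 the genotypes part wherever the spleen is involved, at 0.71 and 3.46 for the PC against the spleen, and for Mt1 they stand at -0.48 and -0.38.

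The other zinc transporters were taken from a list of 14 ZIP genes (the Slc39a family, which bring zinc into the cytosol) and 9 further ZnT genes (the Slc30a family, most of which move it out of the cytosol). Of these 23 genes, 21 had values. The highest mean levels over the 22 libraries were those of Slc39a7 (109 CPM), which releases zinc from the endoplasmic reticulum, Slc39a1 (71.2 CPM) and Slc39a6 (57.2 CPM) among the ZIP genes, and of Slc30a5 (120 CPM), which loads the secretory pathway, Slc30a9 (62.4 CPM) and Slc30a7 (34.1 CPM) among the ZnT genes.

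In the spleen, where Mt2 differed, 0 of the 15 zinc transporters tested passed both thresholds in edgeR, with 2 at an unadjusted p below 0.05, and 0 passed in DESeq2. Of all genes, 3.0% passed both thresholds and 23.0% had an unadjusted p below 0.05. With the library labelled NFKBIE-wt spleen replicate 4 left out, 0 of 17 passed, 7 of them at an unadjusted p below 0.05. In that fit 6.38% of all genes passed both thresholds, and 3447 of 12470 had an unadjusted p below 0.05. The median log2 fold change of NFKBIE-ko against NFKBIE-wt was 0.10 for the ZIP genes and -0.15 for the ZnT genes, beside -0.01 for all genes. In vitro, 0 of 15 passed in edgeR, with 2 at an unadjusted p below 0.05, and 0 in DESeq2, where 9.6% of all genes had an unadjusted p below 0.05. In the PC, 1 of 17 passed, beside 13.4% of all genes. Slc39a11 was the higher in NFKBIE-ko libraries, with a mean of 4.62 ± 1.03 CPM where NFKBIE-wt libraries had 2.27 ± 0.332 CPM (SD, n = 4). Its log2 fold change of 1.01 (SE 0.21, edgeR adjusted p = 0.00296) was just past the threshold. It was no longer called without replicate 2 or 3 of either genotype.

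Without regard to the fold, 6 of 11 ZIP genes were higher in the NFKBIE-ko PC at an adjusted p below 0.05 and 2 of 6 ZnT genes were lower. Of all genes, 22.5% were higher and 20.9% lower by that rule. The median log2 fold change in the PC was 0.31 for the ZIP genes and -0.19 for the ZnT genes, beside -0.01 for all genes. Slc39a10, known for its role in the survival of B cells, rose in the PC from 33.9 ± 2.99 CPM in NFKBIE-wt to 64.4 ± 10.9 CPM in NFKBIE-ko libraries (log2 fold change 0.92, SE 0.12, edgeR adjusted p = 0.000132). Its log2 fold change was 0.78 in the spleen (SE 0.28, adjusted p = 0.139) and 0.66 in vitro (SE 0.26, adjusted p = 0.517), neither past the test. Slc30a9 stood at -0.42 in the PC (SE 0.06, adjusted p = 0.000263), at -0.39 in the spleen (SE 0.11, adjusted p = 0.0758) and at -0.36 in vitro (SE 0.15, adjusted p = 0.519). With the library labelled NFKBIE-wt spleen replicate 4 left out its adjusted p in the spleen was 0.031, at -0.44. Slc39a10 lay outside the rule for named genes and was picked after its values were seen.

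**Figure D5:**
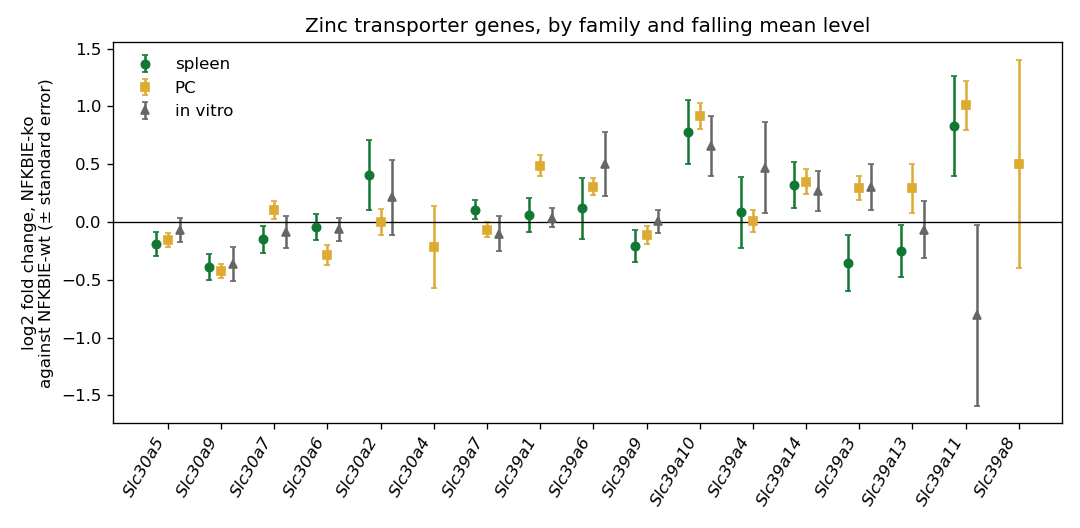
Log2 fold change of NFKBIE-ko against NFKBIE-wt (± standard error) of the zinc transporter genes tested in the spleen, the PC and in vitro, with ZnT genes (Slc30a) on the left, ZIP genes (Slc39a) on the right and each family by falling mean level. Slc39a10 stands at 0.78, 0.92 and 0.66, and Slc39a11 at 1.01 in the PC.

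Between the sites, Slc39a11 was higher in the PC than in the spleen by 1.70 on the log2 scale (SE 0.32, adjusted p = 0.000155) and than in culture by 2.45 (SE 0.37, adjusted p = 1.76e-05), the only ZIP gene past both thresholds with all libraries. Once both libraries that went against their labels were left out these were 1.64 and 3.09, Slc39a11 was also called higher in the spleen than in culture (1.46, adjusted p = 0.000802), Slc39a4 was called lower there (-1.04), and Slc39a8 higher in the PC than in culture (2.50). Myeloid markers were also highest in the PC, with all 12 of 12 genes called higher than in the spleen, where 18.2% of all genes were called in either direction. Their part in the level of Slc39a11 was not tested. Among the ZnT genes, Slc30a4 was called in the spleen and in the PC against culture, at a mean of 0.30 CPM over all libraries, and it was at 0 in the 3 NFKBIE-ko cultures, so that no fold is given. Of the other metallothioneins, Mt3, the form known from the brain, had values and was at 0.22 CPM on average, with the highest library at 1.53 CPM. It was called lower in the PC than in culture, at 0.03 CPM in either genotype against 0.57 and 0.45.

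Other metals and known inducers of metallothioneins were followed in lists of genes for copper, iron, oxidative stress, glucocorticoids, heat shock and IL-6 with STAT3. Between the genotypes in the spleen, Il6st, the shared receptor subunit of IL-6 type cytokines, was the only gene of all lists to pass both thresholds with all 8 libraries. That is 1 of 69 list genes tested, where 3.0% of all genes passed, so that nothing is read from the count. It was at 86.0 ± 31.3 CPM in NFKBIE-wt and 36.4 ± 8.97 CPM in NFKBIE-ko libraries (SD, n = 4), a log2 fold change of -1.25 (SE 0.26, edgeR adjusted p = 0.0298). That call was lost without 6 of the 8 libraries in turn, those other than NFKBIE-wt replicates 2 and 4. With the library labelled NFKBIE-wt spleen replicate 4 left out, Il6st stood at -1.29 and the genes Nqo1 (-1.96), Atp7b (-2.07), Sgk1 (-1.46) and Zbtb16 (-2.09) were called lower as well, where 6.38% of all genes were called. In the PC Il6st was lower as well (-1.51, SE 0.15, adjusted p = 3.92e-05). Of the 7 IL-6 and STAT3 genes tested there, 4 were higher and 2 lower at an edgeR adjusted p below 0.05 without regard to the fold. Of all genes, 22.5% were higher and 20.9% lower by that rule, and the median of the list was 0.47. Il6 was called higher (1.57, SE 0.44, adjusted p = 0.0153), at a mean of 0.70 CPM in NFKBIE-ko libraries, and Junb lower (-1.26, SE 0.37, adjusted p = 0.027). These calls were lost without 1 and 5 of the 8 libraries in turn.

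Between the genotypes in the spleen, the median of the 10 glucocorticoid response genes was -0.23 on the log2 scale, and -0.43 with the library labelled NFKBIE-wt spleen replicate 4 left out. In the NFKBIE-ko PC, Sgk1 (-1.85, SE 0.11, adjusted p = 1.47e-06) and Dusp1 (-1.20, SE 0.38, adjusted p = 0.0365) were lower, of which the call of Dusp1 was lost without 5 of the 8 libraries in turn (NFKBIE-wt replicates 1 and 2 and NFKBIE-ko replicates 2, 3 and 4). Between the host and culture, of its 10 genes, 7 were called higher in the spleen and 8 in the PC than in culture, where 6.24% and 14% of all genes were called higher, with a median of 1.68 and 2.15 on the log2 scale beside 0.04 and -0.03 for all genes. Tsc22d3, a glucocorticoid-induced gene, stood at 2.87 and 3.43 and Fkbp5, a chaperone partner of the receptor, at 1.04 and 1.35. Fkbp5 lay outside the rule for named genes, and Dusp1 stood at 4.18 and 3.25. The call of Fkbp5 in the spleen was lost without 5 of the 22 libraries in turn, and within NFKBIE-wt cells 0 of the 10 genes were called in the spleen against culture. Without both libraries that went against their labels, 8 and 9 of the 10 were called higher, where 11.3% and 16.5% of all genes were, with medians of 2.87 and 3.12, and within NFKBIE-wt cells 8 were called in the spleen. Tsc22d3 then stood at 4.69 and 5.06 and Fkbp5 at 1.76 and 1.92. In the same comparisons, Mt1 was lower in the host in the mean of both genotypes, and within NFKBIE-wt cells it stood at 0.01 in the spleen.

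In the oxidative stress list of 12 genes, Srxn1, which repairs oxidized peroxiredoxins, was higher in the NFKBIE-ko PC (1.06, SE 0.32, adjusted p = 0.022, lost without NFKBIE-wt replicate 2 or NFKBIE-ko replicate 3), and in the PC against the spleen Hmox1, which breaks down heme, rose by 2.32 (SE 0.26, adjusted p = 5.54e-07) and Nqo1 fell by 1.72 (SE 0.60, adjusted p = 0.0193, lost with the library labelled NFKBIE-wt spleen replicate 4 left out, and -0.80 without both libraries that went against their labels). Nqo1 and Txnrd1 were lower in the PC than in culture (-4.93 and -1.49), while Hmox1 and Srxn1 were higher (1.71 and 2.94). Txnrd1 lay outside the rule for named genes. Slc7a11 was called higher there too, at a mean of 0.14 CPM over all libraries. Of 8 heat shock genes, 3 were higher in the spleen and in the PC than in culture, among them Hspb1 (2.41 and 2.91), and Hspb1 and Dnajb1 were lower in the NFKBIE-ko PC (-1.05 and -1.04), calls that were each lost without 6 of the 8 libraries in turn. Without both libraries, Nqo1 and Txnrd1 stood at -5.16 and -1.63 in the PC against culture, and 4 heat shock genes were called higher in the spleen than in culture, where 11.3% of all genes were.

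Among copper genes, the transporter Slc31a2 was higher in the PC than in the spleen (2.10, SE 0.16, adjusted p = 3.9e-09), and the copper pump Atp7a was higher in the NFKBIE-ko PC (1.13, SE 0.20, adjusted p = 0.00129, lost without NFKBIE-ko replicate 1). Among iron genes, the transferrin receptor Tfrc was lower in the PC than in culture (-1.28, SE 0.16, adjusted p = 2.5e-06), and in the NFKBIE-ko PC Steap3 was higher (1.18) and the iron exporter Slc40a1 lower (-1.75, lost without NFKBIE-ko replicate 2 or 4). Myeloid, granulocyte and T cell markers differed between the genotypes in the PC as given above, and their part in these values was not tested.

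The genes whose pattern was most like that of the metallothioneins were found by Pearson's r of log2(CPM + 1) over the 22 libraries, among genes with a mean of at least 5 CPM. The libraries fall into 6 groups and share their line and processing, so that r is a description. For Mt1 these were Tnk2 (r = 0.926), Arhgef39 (0.893), Eif2ak4 (0.890), Gm14295 (0.882) and 2610008E11Rik (0.880). Eif2ak4, which encodes the stress kinase GCN2, had mean levels of 107 and 44.7 CPM in the NFKBIE-wt and NFKBIE-ko spleen, 67.4 and 35.2 in the PC, and 90.5 and 67.1 in vitro. For Mt2 they were Smug1 (0.941), Tmx4 (0.923), Jrkl (0.904), Sft2d3 (0.904) and Ypel3 (0.902). Smug1, which encodes a DNA glycosylase, was at 12.7 and 5.11 CPM in the NFKBIE-wt and NFKBIE-ko spleen and at 16.5 to 18.7 CPM in the other groups. Mt1 and Mt2 themselves had an r of 0.266 over the libraries, and one of 0.526 once the mean of each group was taken away. With both libraries that went against their labels left out, Tnk2 (0.918), Gm14295 (0.895) and Arhgef39 (0.880) were still among the 5 genes most like Mt1, Smug1 (0.948), Tmx4 (0.927) and Ypel3 (0.912) among those most like Mt2, and Mt1 and Mt2 had an r of 0.257.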

How the data were processed

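The authors sequenced paired-end mRNA libraries, quantified them per transcript with SALMON 1.8 (GRCm39). The deposited values are expected counts, estimated per transcript and not normalized. The table holds 62492 transcripts, each above 0 in at least 5 of 22 samples. Values were rounded and summed per gene for the 62147 transcripts that matched GENCODE of the same build (17023 genes), and 0.619% of the counts had no match. The members, gene lists and tests were chosen with earlier results of these data known.

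Fits used edgeR 4.0.16 with TMM, filterByExpr (minimum count 10) and quasi-likelihood tests in R 4.3.3, per site for NFKBIE-ko against NFKBIE-wt and over all 22 samples between sites. A gene was called where its adjusted p (Benjamini-Hochberg) was below 0.05 and its log2 fold change lay beyond 1. SE is the standard error of the log2 fold change. The number of libraries and the counts per gene limit the precision, and the p-values measure the spread between these libraries. With 5 recipients and 4 libraries per site in each genotype, some recipients must have given both, provided that each library came from a single mouse. Which spleen and PC libraries shared a recipient is not given. The tests between these sites treated them as independent and ignored this pairing. Sampling noise was exceeded by the difference within each of 30 pairs of replicates. Replicate numbers were not taken as pairs, since the correlation of libraries of the same number was of either sign, between -0.328 and 0.446.

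The rule for named genes took the 4 genes, Nfkbie, up to 3 called genes per list and comparison by fold, the 3 zinc transporters of each family with the highest mean CPM and the 5 genes most like Mt1 and Mt2. Not every gene that met this rule was named. Fkbp5, Txnrd1 and Slc39a10 were named outside it, as were genes flagged for a closer look and examples of markers. Alternatives were RLE size factors, other filters, DESeq2 1.42.0, the main transcript, a fit of all samples, each genotype alone, the replicate block, no fold threshold and each library left out, and, chosen after seeing the data, both libraries that went against their labels left out together. Mt2 was given no test between sites. The fits were tested on simulated data. Figures were drawn with matplotlib 3.10.9 in Python 3.11.15. Purified samples and patient data of the study were not used here.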

Additional observations from a re-analysis of the deposited data

Results flagged for a closer look

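Mt1 in NFKBIE-wt spleen replicate 2, at 238 CPM, was far from the other libraries of its group (196, 197 and 199 CPM). About 1 of 20 groups passes the threshold used for such a gap by chance.

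For genes of the lists, the difference between the genotypes itself differed between sites in the edgeR fit of all 22 samples, in which 663 of 13538 genes did so for the spleen against the PC and 60 for the spleen against culture. Klf9, a glucocorticoid-induced transcription factor, differed by -1.21 on the log2 scale (SE 0.24, adjusted p = 0.00866), with 6.37 ± 1.52 CPM in the NFKBIE-ko and 11.2 ± 1.42 CPM in the NFKBIE-wt spleen (SD, 4 libraries each) and 32.0 ± 2.76 and 24.3 ± 3.71 CPM in the PC. Hspa8, a chaperone expressed in all cells, differed by 0.52 (SE 0.14, adjusted p = 0.0399), with a genotype difference of 0.59 in the spleen and 0.07 in the PC. Pim1, a kinase gene that responds to STAT3, differed by 1.30 (SE 0.25, adjusted p = 0.0338) between the spleen, at 0.50, and culture, at -0.81. Without both libraries that went against their labels, the values were -1.09 (adjusted p = 0.00656) for Klf9, 0.49 (adjusted p = 0.0489) for Hspa8 and 0.92 (adjusted p = 0.0259) for Pim1.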

How the results depend on the processing

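The log2 fold changes of the 4 genes between the genotypes kept within 1 SD of the replicates under every alternative run. Mt2 in the spleen ranged from -3.02 to -2.57, Mt1 in the spleen from -0.999 to -0.89 and in the PC from -0.99 to -0.80. Among the alternatives the sign changed for the small genotype differences of Mt2 and Slc30a1 in the PC and of Mtf1 in the spleen, and for Slc30a1 in the PC against the spleen and in the spleen against culture. In PC against culture, Mt1 passed the fold threshold within NFKBIE-ko cells alone (-1.24). For Mt2, the PC against the spleen gave 0.71 within NFKBIE-wt and 3.46 within NFKBIE-ko cells, and the spleen against culture -0.30 and -3.21. Without both libraries that went against their labels, an alternative chosen after seeing the data, these were 0.78, 3.46, -0.39 and -3.17, and Mt1 in PC against culture within NFKBIE-ko cells was -1.20. Within NFKBIE-wt cells, Mt1 in the spleen against culture went from -0.15 to 0.01. With the replicate block the adjusted p of Mtf1 and Slc30a1 in the PC against culture became 0.172 and 0.105, and it changed no other call of the 4 genes.

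Counts of genes called moved more. For the genotypes in the spleen, 367 genes became 722 with DESeq2, 89 with the replicate block, 78 with the main transcript, 662 in a fit of 22 samples and 669 with no fold threshold. Leaving out a library gave 115 (without NFKBIE-ko replicate 1) to 796 (without NFKBIE-wt replicate 4), with 211 and 160 without NFKBIE-wt replicates 1 and 3 and 121 and 131 without NFKBIE-ko replicates 3 and 4. In the PC, 1700 became 5486 with no fold threshold. In vitro, 5 became 155 with DESeq2 and 189 in a fit of 22 samples. It became 0 with the replicate block (873 at an unadjusted p below 0.05 in edgeR) and 0 with the main transcript (827). Leaving out a culture gave 0 to 390, the highest without NFKBIE-wt replicate 2, 9 without NFKBIE-wt replicate 3 and 0 without any of the others. In the spleen against culture, 1337 became 726 with the main transcript, 592 with the replicate block, 3931 with no fold threshold and 0 within NFKBIE-wt (1061 at an unadjusted p below 0.05 in edgeR). Leaving out a library gave 1043 to 2015, the highest without NFKBIE-wt culture replicate 3. With no fold threshold, 7824 genes passed in the PC against the spleen and 7662 in the PC against culture. Without both libraries that went against their labels, 1022 genes were called between the genotypes in the spleen and 133 in vitro in a fit of 20 samples, and 2359 in the spleen against culture (2214 within NFKBIE-ko cells). The cause was not tested. The correlation of same-numbered NFKBIE-wt and NFKBIE-ko libraries lay between -0.32 and 0.038 in the spleen, -0.214 and 0.0489 in the PC and -0.0144 and 0.167 in vitro. Between same-numbered spleen and PC libraries it lay between -0.161 and 0.213 in NFKBIE-wt and between -0.0519 and 0.218 in NFKBIE-ko cells. Between same-numbered NFKBIE-wt spleen and culture libraries it lay between -0.328 and 0.446. The means of these groups held the libraries that went against their labels, so that values involving the NFKBIE-wt spleen or culture cannot settle whether numbers pair. The numbers were thus not taken as pairs, though some spleen and PC libraries must have shared a recipient if each library came from a single mouse. Mt2 held 61 counts in its lowest library.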
